A study of Mus musculus with 7 samples.

Results

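The loci described here are copies of the short interspersed elements B4, B4A, RSINE1 and ID in the mouse genome, measured in whole testes of wild-type (WT) and *Glis3* mutant (Mutant) embryos at E14.5. Members were every row of the RepeatMasker count table whose element name was B4, B4A or RSINE1 or began with ID, which gave 461773 of 3494995 loci. They carried 8 names: 64020 loci were named B4, 107073 B4A, 115806 RSINE1, 8022 ID, 5671 ID2, 23970 ID4, 26384 ID4_ and 110827 ID_B1. The 7 libraries were 3 WT and 4 Mutant embryos on the C57BL/6 background, each library being the RNA of 1 pair of testes from 1 embryo, with ribosomal RNA removed, no selection for poly-A and no record of the strand. The Mutant embryos were zf5/zf5 homozygotes, which carry in all tissues a deletion across an exon of *Glis3* and parts of the introns beside it. The deletion is global and not limited to a cell type of the testis. *Glis3*, a Krüppel-like zinc finger factor, is expressed in fetal germ cells. The design asks, for each element name, whether its RNA differed between WT and Mutant testes.

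Short interspersed elements are non-coding retrotransposons that copy themselves with the enzymes of LINE-1. ID elements descend from the *Bc1* RNA gene, itself derived from an alanine tRNA, and carry an internal promoter of RNA polymerase III that consists of an A box and a B box. ID_B1 and the B4 family, to which RSINE1 belongs, join an ID-like part to a B1-like part, and B1 descends from 7SL RNA. Most copies lie inside genes and are read through by RNA polymerase II as part of introns and untranslated exons, so a read on a locus does not show that the element's own promoter was used. Chromatin regulators such as Setdb1 and the Suv39h enzymes are known to act on these families, and the piRNA pathway of fetal germ cells acts on retrotransposons in general.

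The sequences below show what these elements look like beside their ancestor. They were read from GENCODE M21 transcripts (GRCm38), run 5′ to 3′ in the direction of the element and are in lower case, with matches to the A box (GCNNAGTGG) or B box (GTTCNNNNC) on the printed strand in capitals. *Bc1* (chr7:144914470-144914637, + strand, 168 bases) holds an A box from base 16 and a B box from base 58. For ID, ID2, ID4 and ID4_ the next lines give the tested copy with the highest local alignment score to *Bc1* among a set in non-coding exons. The set was limited by length and chromosome and left out the most-read copies picked beforehand. The copies lie in *Usp29* (chr7:6732908-6732983, +), *Mospd2* (chrX:164958169-164958254, +), Gm43627 (chr5:64972709-64972840, -) and *Atr* (chr9:95890486-95890593, -).
Bc1: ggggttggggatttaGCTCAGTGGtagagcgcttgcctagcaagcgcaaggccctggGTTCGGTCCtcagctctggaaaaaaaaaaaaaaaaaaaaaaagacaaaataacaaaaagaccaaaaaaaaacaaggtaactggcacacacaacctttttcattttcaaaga
ID in *Usp29*: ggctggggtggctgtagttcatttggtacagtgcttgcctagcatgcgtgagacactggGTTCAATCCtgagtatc
ID2 in *Mospd2*: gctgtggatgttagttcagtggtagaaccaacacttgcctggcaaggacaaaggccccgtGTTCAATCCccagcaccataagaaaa
ID4 in Gm43627: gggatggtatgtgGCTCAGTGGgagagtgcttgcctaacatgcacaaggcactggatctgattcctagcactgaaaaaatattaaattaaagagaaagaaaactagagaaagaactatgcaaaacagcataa
ID4_ in *Atr*: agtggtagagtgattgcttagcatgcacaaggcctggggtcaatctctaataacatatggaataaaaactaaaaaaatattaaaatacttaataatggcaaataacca

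In a local alignment these copies were 74.6% (ID), 72.6% (ID2), 72.5% (ID4) and 72.7% (ID4_) identical to *Bc1* over 71, 84, 131 and 110 aligned bases. The score rewards length, so these are not the highest identities. Over all loci of these names whole inside an exon, the upper quartiles of identity were 76.5% (ID), 72.8% (ID2), 73.3% (ID4) and 72.7% (ID4_). The median aligned lengths there were 53, 71, 69 and 68 bases. The printed copies had low levels: the mean over the 7 libraries was 2.71 reads for the ID copy, 6 for ID2, 3 for ID4 and 3.43 for ID4_. *Bc1* itself was listed at 0 FPKM in all 7 libraries in both of its rows of the gene table.

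All but the last of the next lines give copies that carry far more reads. Each is the most-read copy of its name among those whole inside a non-coding exon and at least as long as the name's median. The same limits of length and chromosome applied, so other copies may have more reads. They are the ID4_ copy in an exon of the lincRNA Gm2044 (chr7:139957017-139957124, -), the RSINE1 copy in the lincRNA 2900097C17Rik (chr2:156389295-156389444, -), the B4 copy in a retained intron of *Gria3* (chrX:41611982-41612253, +) and the B4A copy in a retained intron of *Tia1* (chr6:86422546-86422820, -). The last line is the ID_B1 copy in an exon of the lincRNA Gm38509 (chr3:34781786-34781999, -), which was lower in Mutant testes.
ID4_ in Gm2044: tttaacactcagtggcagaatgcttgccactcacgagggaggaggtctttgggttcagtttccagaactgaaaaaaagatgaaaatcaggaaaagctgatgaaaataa
RSINE1 in 2900097C17Rik: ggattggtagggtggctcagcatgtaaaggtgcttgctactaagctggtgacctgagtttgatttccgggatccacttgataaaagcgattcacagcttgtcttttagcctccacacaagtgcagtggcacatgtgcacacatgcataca
B4 in *Gria3*: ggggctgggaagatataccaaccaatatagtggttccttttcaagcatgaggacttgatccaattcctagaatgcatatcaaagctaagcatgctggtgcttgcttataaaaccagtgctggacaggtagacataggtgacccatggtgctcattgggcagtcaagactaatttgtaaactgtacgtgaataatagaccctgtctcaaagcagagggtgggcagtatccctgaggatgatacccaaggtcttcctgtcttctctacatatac
B4A in *Tia1*: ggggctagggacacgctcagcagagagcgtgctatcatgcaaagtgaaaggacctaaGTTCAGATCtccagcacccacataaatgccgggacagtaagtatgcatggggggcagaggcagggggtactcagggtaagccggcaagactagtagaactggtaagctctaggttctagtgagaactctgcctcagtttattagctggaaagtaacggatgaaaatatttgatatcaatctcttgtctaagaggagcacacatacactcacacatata
ID_B1 in Gm38509: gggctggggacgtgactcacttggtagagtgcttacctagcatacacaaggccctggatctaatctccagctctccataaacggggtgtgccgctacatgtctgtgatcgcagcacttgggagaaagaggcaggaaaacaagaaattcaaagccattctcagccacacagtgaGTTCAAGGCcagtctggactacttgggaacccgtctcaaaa

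The 12379 member loci that lie whole inside an exon could be read in this way. An A box match on the element's strand was present in 18.4% of ID2, 16.3% of ID4, 15.9% of ID4_, 9.69% of RSINE1, 7.34% of B4A, 4.77% of B4, 3.44% of ID and 2.83% of ID_B1 loci. A B box match was present in 31.0% of ID4_, 27.0% of ID_B1, 22.5% of ID4, 21.8% of RSINE1, 21.4% of ID2, 20.5% of B4, 19.1% of B4A and 16.8% of ID loci. An A box followed by a B box was found in 1.78% of all 12379 loci. It was found in 0.226% of 11934 stretches of equal length that come just before a locus in the direction of the transcript. For copies antisense to the transcript, these stretches lie on the 3′ side of the element. On the opposite strand 0.549% of the loci held an A box and 11.1% a B box. By name the B box share there ran from 3.05% (ID4_) to 24.7% (RSINE1), and in RSINE1 it was above that on the element's strand. In the stretches beside the loci, 1.36% held an A box and 9.64% a B box. Of 32851 promoters of 300 bases, 2.89% held the A box and 21.3% the B box on the gene's strand. These shares describe letters in a window and are not a measure of promoter use.

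The libraries held between 3454317 and 4670830 reads on LINE, SINE and LTR loci, of which 13.6% to 14.7% fell on members. Between 93819 and 110066 member loci had reads in a library, and 203383 had a read in at least 1 library. Levels are given as CPM, read counts scaled to the effective library sizes of edgeR. In *Glis3* itself the library labelled WT replicate 3 was at 2.91 FPKM, within the 2.66 to 3.86 FPKM of the Mutant libraries, whereas WT replicates 1 and 2 were at 7.63 and 6.89 FPKM. Whether its label or genotype is right cannot be settled from these data, and each WT mean below includes it. Counts of loci and genes past the threshold are therefore given with and without it. The germ cell markers *Ddx4*, *Dazl*, *Pou5f1*, *Dppa3* and *Sall4* summed to 1205, 816 and 521 FPKM in WT replicates 1, 2 and 3 and to between 428 and 557 FPKM in Mutant libraries. In their sum WT replicate 3 lay within the Mutant range, although its *Ddx4* (53.1 FPKM), *Dazl* (167 FPKM) and *Sall4* (3.28 FPKM) were above those of each Mutant library. All 5 markers were present in every library. The summed fetal Leydig cell markers *Cyp11a1*, *Cyp17a1*, *Hsd3b1*, *Star* and *Insl3* were between 1596 and 2658 FPKM in WT and between 2498 and 3073 FPKM in Mutant libraries. In whole testes, fewer cells of a type and less RNA per cell cannot be told apart.

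Summed over all loci, none of the 8 names differed between WT and Mutant testes. On this scale every name was slightly higher in Mutant testes, by log2 fold changes from 0.02 for B4A to 0.08 for ID4, and the adjusted p-values of edgeR's quasi-likelihood test were between 0.446 and 0.730. Over all elements of the series, 0.116% of 862 names passed the threshold of adjusted p under 0.1. ID4, with the largest difference among the members, was at 11126, 12391 and 11896 CPM in WT and at 12222, 11985, 13235 and 12508 CPM in Mutant libraries. The groups overlapped, and the log2 fold change was 0.08 ± 0.05 (SE, adjusted p = 0.449), with a 95% interval from -0.03 to 0.19. B4 was at 15185, 15350 and 15376 CPM in WT and at 16024, 15355, 16168 and 15747 CPM in Mutant libraries. Its groups overlapped by a single pair of libraries, since Mutant replicate 2 lay below WT replicate 3, and its log2 fold change was 0.05 ± 0.04 (SE, adjusted p = 0.507).

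B4A was at 28538 ± 246 CPM (SD, n = 3) in WT and 28975 ± 408 CPM (SD, n = 4) in Mutant testes. RSINE1 was at 37400 ± 1013 and 38400 ± 820.2 CPM, and ID_B1, the most abundant name, at 41216 ± 1118 and 42900 ± 1413 CPM. The shorter ID names were at 1781 ± 53.2 and 1843 ± 47.0 CPM for ID, 2381 ± 108 and 2471 ± 80.9 CPM for ID2, and 12086 ± 605 and 12728 ± 392 CPM for ID4_. In exact permutation tests of the 8 names, two-sided over the 35 ways to divide 7 libraries into 3 and 4, the p-values were between 0.0857 and 0.343, and the smallest that this design can give is 0.0286. The 95% intervals of the 8 log2 fold changes lay between -0.05 and 0.19. The direction depended on the scale: with scaling by library size alone, the fold changes of B4, B4A, RSINE1 and ID turned negative, and with factors computed on the name totals those of 6 names did.

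**Figure D1:**
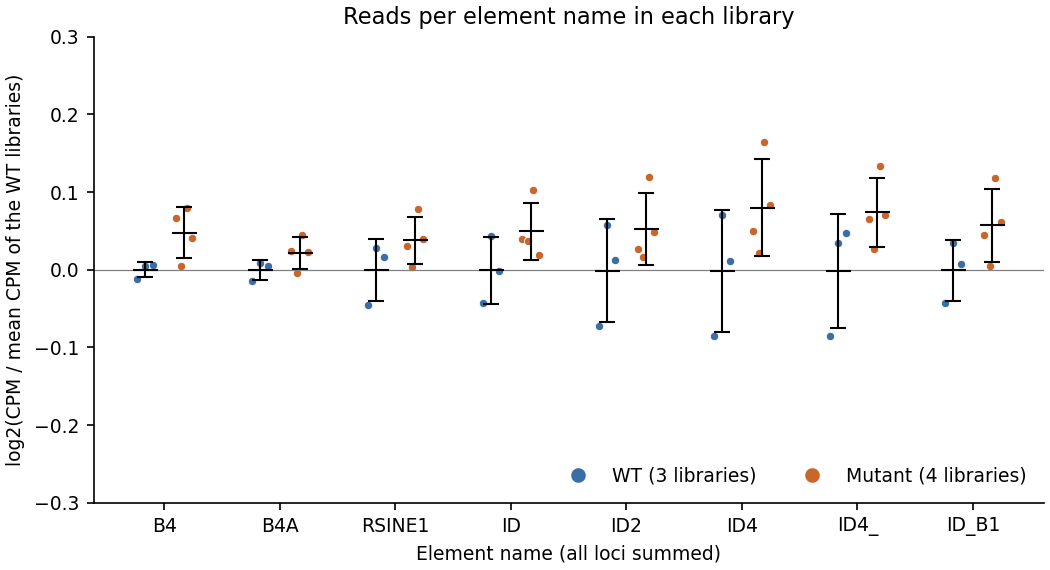
Reads per element name in each library, as log2 of CPM over the mean of the WT libraries, on the y axis, for the 8 names on the x axis; points are libraries, and bars are the mean ± SD of 3 WT and 4 Mutant libraries. The WT and Mutant points of each name overlap and lie close to the WT mean.

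Most reads came from few loci. The 10 most-read loci of a name held from 4.93% (RSINE1) to 29.5% (ID2) of its reads. For each name, between 0.826% (ID4_) and 1.956% (RSINE1) of its loci held 50% of its reads. The most-read locus of ID_B1 lay in a coding exon of *Ddb1*, a part of the DNA damage ubiquitin ligase, and that of B4 in a coding exon of *Pdia4*, a protein folding enzyme of the endoplasmic reticulum. At the *Ddb1* locus (chr19:10626563-10626632) the level was 902 ± 26.8 CPM (SD, n = 3) in WT and 932 ± 94.7 CPM (SD, n = 4) in Mutant testes, and at the *Pdia4* locus (chr6:47806908-47807006) it was 362 ± 19.4 and 385 ± 26.6 CPM. The most-read B4A locus, of 18 bases (chr11:96248604-96248621), lay outside GENCODE genes in the RefSeq gene Gm11539 and was at 847 ± 58.1 and 841 ± 109 CPM.

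The most-read loci of ID4, ID2 and ID lay in untranslated exons of *Tpm3*, a tropomyosin, *Trpm7*, an ion channel with a kinase domain, and *Alg11*, a glycosyltransferase. They were at 258 ± 9.41 and 296 ± 38.1 CPM (ID4, chr3:90100254-90100315), 118 ± 13.9 and 118 ± 14.1 CPM (ID2, chr2:126792277-126792315), and 63.2 ± 4.42 and 69.7 ± 5.70 CPM (ID, chr8:22068190-22068271) in WT and Mutant testes. None of these 6 loci passed the threshold, with adjusted p-values of edgeR between 0.977 and 0.993. The most-read RSINE1 locus, in *Star*, did pass it.

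The most-read ID4_ locus, the copy in Gm2044 printed above, was at 445, 509 and 807 CPM in WT and at 778, 643, 829 and 765 CPM in Mutant libraries. WT replicate 3 was the second highest of the 7 libraries and the other WT libraries were the lowest. With all libraries its log2 fold change was 0.36 ± 0.14 (SE, adjusted p = 0.762), and without WT replicate 3 it was among the loci past the threshold.

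By position, members were strongest in exons. Loci touching an exon of a GENCODE M21 gene made up 3.27% of members and had a mean level of 26674 CPM per Mb of element, those in introns made up 53.1% with 2749 CPM per Mb, and those outside genes made up 43.6% with 314 CPM per Mb. The shorter names ID2, ID4 and ID4_ had the highest level per length in exons, at 70140, 82438 and 77829 CPM per Mb, and B4A the lowest, at 11743 CPM per Mb. Over all loci the median length was 73 bases in ID2 and ID4 and 72 in ID4_, against 197 in B4A. A read can reach past a short copy, so division by length favours short names in each comparison of levels per length between names. ID4 drew 52.8% of its reads from the 4.46% of its loci that touch exons, and B4A drew 17.7% from 2.28%. Of the reads on exonic members, 67.0% fell on loci in untranslated exons of coding genes, 26.1% on loci in non-coding exons and 6.85% on loci that touch coding sequence.

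**Figure D2:**
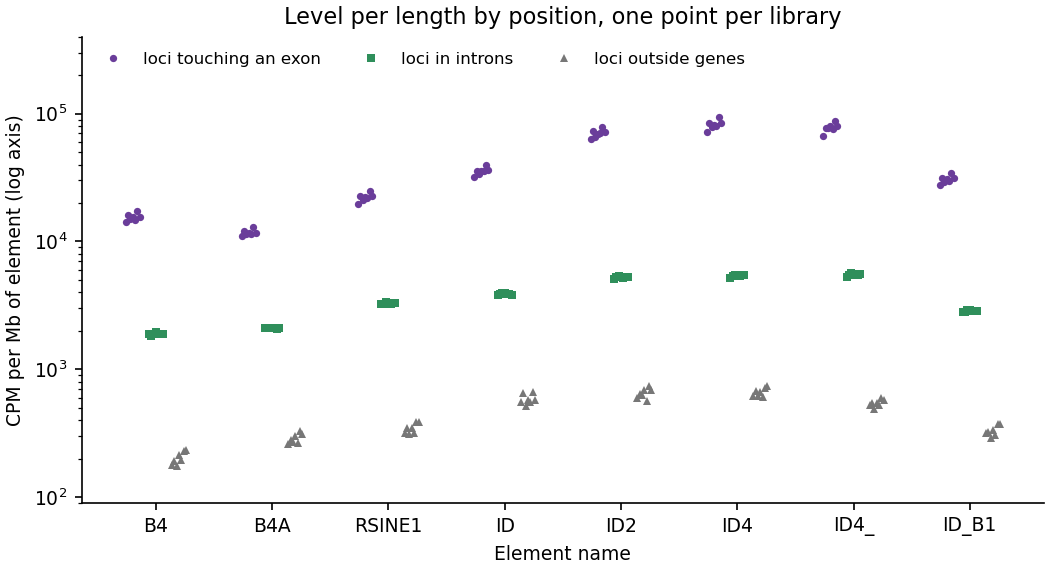
CPM per Mb of element on a log axis for the 8 element names, split into loci touching an exon, loci in introns and loci outside genes; each point is 1 of the 7 libraries. In every name exonic loci lie above intronic loci, and intronic loci above those outside genes.

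Of the reads on members, 31.8% to 36.4% lay in exons in the 7 libraries, 57.4% to 62.6% in introns and 5.29% to 6.33% outside genes. The exonic share was 33.1% ± 1.42 (SD, n = 3) in WT and 34.5% ± 1.33 (SD, n = 4) in Mutant testes, a difference of 1.34 percentage points (exact permutation p = 0.314, two-sided). The share outside genes was 5.54% ± 0.218 and 5.97% ± 0.391 (exact permutation p = 0.171). In each of the 7 libraries the exonic share of the members was below that of the B1 names and above that of the B2 and B3 names. The exact test on the sign of the differences gave its smallest p of 0.0156 in both cases. The copies have the same positions in every library, so this outcome was largely set beforehand. Its p takes WT and Mutant libraries together and shows only that the order was steady between libraries. Taken over members inside a single gene, 51.1% of exonic and 45.6% of intronic loci had the orientation of the host gene. The libraries do not record the strand, so these are properties of the annotation.

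Tested as 24 totals, 1 for each name and position, only B4 outside genes passed the threshold, which is 4.17% of the members' totals against 3.48% of the 2444 totals over all elements. A share so near that background is no result about the members, and the values of B4 are given as a description. The log2 fold changes were between 0.05 and 0.14 for the 8 exonic totals (adjusted p from 0.330 to 0.687), between -0.002 and 0.03 for the 8 intronic totals (adjusted p from 0.689 to 0.998) and between 0.05 and 0.26 outside genes. B4 outside genes was at 884, 941 and 869 CPM in WT and at 1058, 963, 1119 and 1147 CPM in Mutant libraries. All Mutant libraries were above all WT libraries, and the log2 fold change was 0.26 ± 0.07 (SE, adjusted p = 0.0935). It did not pass with scaling by library size alone (log2 fold change 0.20, adjusted p = 0.153), and it did not pass in 5 of the 7 fits that left out 1 library, namely those without WT replicate 1 or 3 or Mutant replicate 1, 3 or 4. Without Mutant replicate 2, 4 of the 24 totals passed, when 9.002% of the 2444 totals did.

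The loci outside genes were then divided by their distance to the nearest GENCODE gene, a choice made after the values were seen. Within 5 kb of a gene, members were at 837 ± 45.8 CPM per Mb (SD, n = 3) in WT and 872 ± 69.5 CPM per Mb (SD, n = 4) in Mutant testes, and the groups overlapped in all 8 names. From 5 to 50 kb they were at 111, 116 and 112 CPM per Mb in WT and at 146, 123, 151 and 161 CPM per Mb in Mutant libraries. Farther than 50 kb they were at 55.4, 70.5 and 71.8 CPM per Mb in WT and at 104, 80.8, 103 and 122 CPM per Mb in Mutant libraries. Each Mutant library was above each WT library in both of these classes, by a ratio of the means of 1.29 and 1.56 (exact permutation p = 0.0571 in both, two-sided). Mutant replicate 2 was the lowest Mutant library in both.

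The difference in mean level over all members was 35.4 CPM per Mb up to 5 kb, 32.9 from 5 to 50 kb and 36.7 beyond 50 kb. Up to 5 kb it was smaller than the SD of either group (exact permutation p = 0.486, two-sided). Whether the 3 differences are alike therefore cannot be told. Over all loci that are no members they were 31.1, 22.2 and 23.8 CPM per Mb. By name the members' difference ran from 20.4 (ID) to 49.3 (ID2) CPM per Mb over all loci outside genes, with 35.3 in B4, and from -16.6 to 46.4 CPM per Mb up to 5 kb. B4 had the lowest level outside genes (182 ± 7.73 CPM per Mb in WT), and a ratio of 1.19, the highest of the 8 names. Beyond 50 kb the reads were spread widely, since the 10 most-read loci held 3.11% of them. Up to 5 kb the 10 most-read loci held 18.8% of the members' reads, and in B4A alone 52.9%. The B4A loci outside GENCODE genes include the most-read copy of 18 bases, which lies in the RefSeq gene Gm11539. Other elements beyond 50 kb of a gene were also higher in each Mutant library than in each WT library, with ratios of 1.61 in B1 names, 1.51 in B2 and B3 names and 1.83 in L1 names. The members' level over that of all other loci beyond 50 kb was 1.86 ± 0.0279 (SD, n = 3) in WT and 1.74 ± 0.0635 (SD, n = 4) in Mutant testes (exact permutation p = 0.0571). The same ratio was 2.40 ± 0.0152 and 2.29 ± 0.0299 up to 5 kb (exact permutation p = 0.0286, the smallest possible) and 1.426 ± 0.0738 and 1.435 ± 0.00639 from 5 to 50 kb (exact permutation p = 0.714). What part reads of this spread kind have in the B4 values was not tested.

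**Figure D3:**
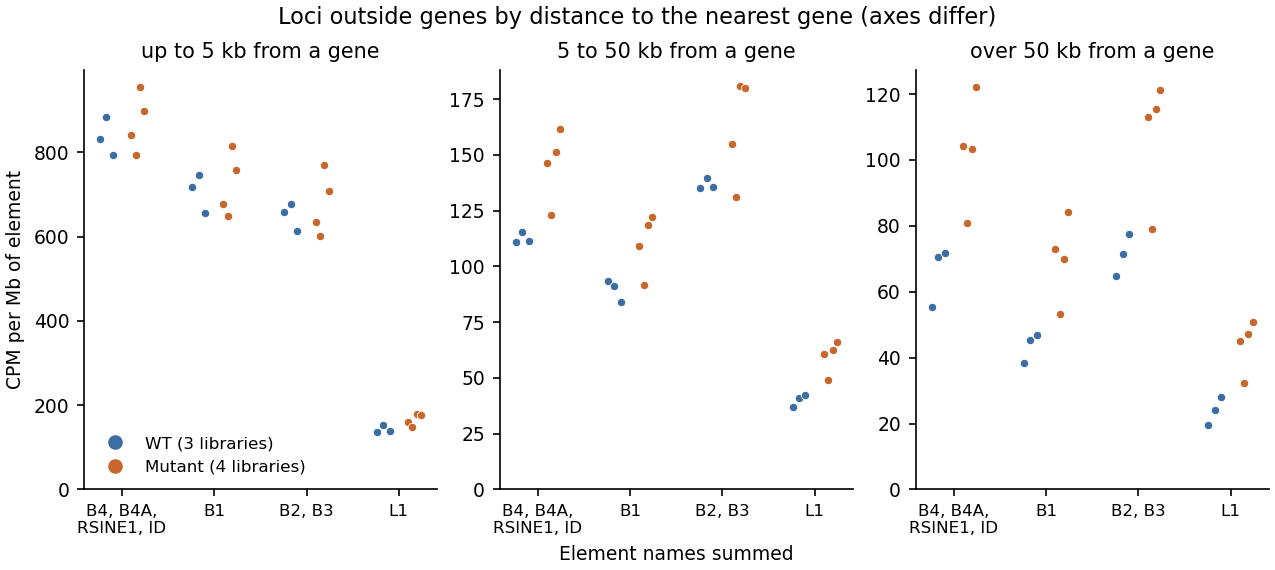
CPM per Mb of element outside genes in 3 classes of distance to the nearest GENCODE gene, for the members (B4, B4A, RSINE1 and ID names), B1, B2 and B3, and L1 names; each point is a library and the y axes differ between panels. Beyond 50 kb all 4 Mutant points lie above all 3 WT points in each set, whereas up to 5 kb the members' groups overlap.

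Among single loci, 75401 members averaged 1 read or more in a library and were tested, and 28 passed an adjusted p under 0.1 in edgeR's quasi-likelihood test. Of these, 9 were higher in Mutant testes (0.0119% of tested members, against 0.0217% of all 464695 loci tested) and 19 were lower (0.0252%, against 0.0628%). At an unadjusted p under 0.05 stood 4.28% of tested members and 4.79% of all tested loci. The WT and Mutant libraries did not overlap, with Mutant higher, at 2126 members (2.82%, against 2.97% of all tested loci) and, with Mutant lower, at 2374 members (3.15%, against 3.03%). The shares by overlap and by unadjusted p were near those of all tested loci, and the shares past the threshold were below them. By name, the loci past the threshold were 4 B4, 4 B4A, 4 RSINE1, 1 ID2, 5 ID4, 5 ID4_ and 5 ID_B1. Just inside the threshold was a B4 locus with adjusted p = 0.0917 and just outside it an ID4_ locus with adjusted p = 0.104.

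The number of calls depended strongly on the tool. At this depth edgeR estimated an infinite number of prior degrees of freedom, so each locus received the common spread and not its own, and DESeq2 called 1 member higher and 1 lower, with or without its filter on low means. Both of its calls were among the 28, and its adjusted p-values below are those without that filter, a setting chosen after seeing the data. Only 6 of the 19 lower loci had groups that did not overlap, and at 11 of the 19 WT replicate 3 fell between the lowest and the highest Mutant library. Of the 9 higher loci, 8 had groups that did not overlap. Without WT replicate 3, 35 members were lower, including all 19, and 11 were higher, of which 3 were among the 9. These were 0.0464% and 0.0146% of tested members, against 0.119% and 0.0220% of all loci in that fit. The fits without another library gave between 4 and 20 lower and between 4 and 9 higher loci.

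**Figure D4:**
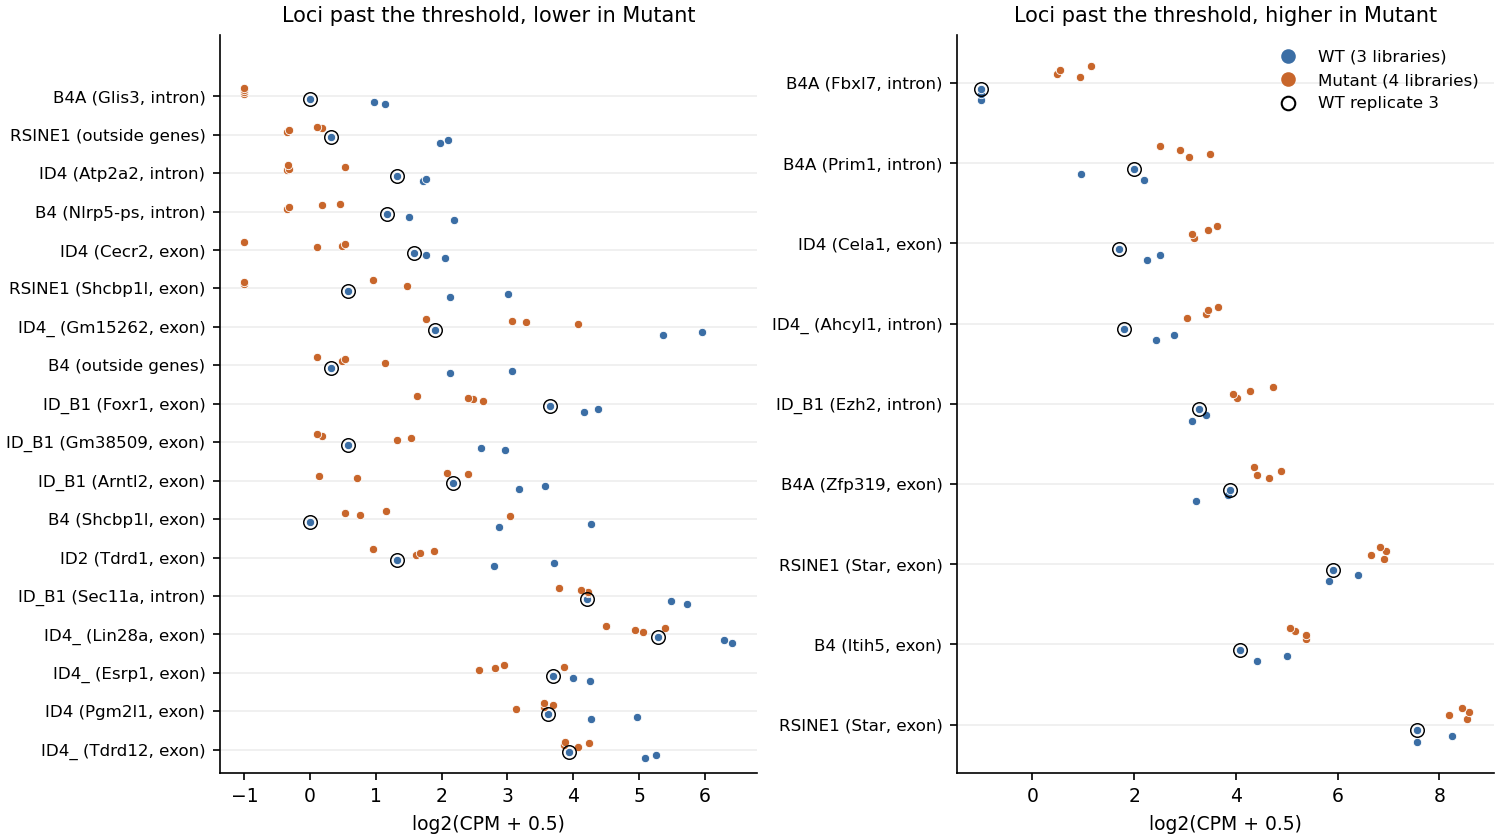
log2(CPM + 0.5) in each library on the x axis for 18 of the 19 member loci lower and the 9 higher in Mutant testes, labelled by element name, host gene and position; WT replicate 3 is ringed. Among the lower loci the ringed point often lies with the Mutant libraries, and in 11 of 19 it is inside their range.

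Of the 19 lower loci, 13 touched exons, 4 were in introns and 2 outside genes. In either direction, 0.243% of tested exonic members passed, against 0.295% of all exonic loci, 0.0126% against 0.0299% in introns and 0.0427% against 0.324% outside genes. Of the 14 with a tested host gene, 13 had a host with a negative log2 fold change in FPKM, where 47.9% of all genes tested were lower. The loci were chosen by direction in these same libraries, and 2 of them share *Shcbp1l*. None of the 21 different host genes tested passed an adjusted p of 0.05 in limma (0.00715% of 13988 genes did). Without WT replicate 3, 9 of the 21 passed it, when 722 of 14019 genes passed in all. That library was singled out for its *Glis3* level, within the Mutant range, so leaving it out favours genes with the same layout. The germ cell markers given above had lower means in Mutant testes as well. None passed the threshold with all libraries, and in their sum WT replicate 3 lay within the Mutant range. The part of these markers in the results was not tested.

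The ID_B1 locus in an untranslated exon of *Foxr1* (chr9:44441076-44441246), a forkhead factor gene, was called by edgeR and DESeq2 and in each of the 15 alternatives. It was at 17.3, 20.3 and 11.98 CPM in WT and at 5.70, 5.06, 4.75 and 2.59 CPM in Mutant libraries. The groups did not overlap, and the log2 fold change was -1.86 ± 0.25 (SE, adjusted p = 8.7e-10 in edgeR and 0.00275 in DESeq2). *Foxr1* had 4.71, 4.58 and 1.95 FPKM in WT and between 0.838 and 1.75 FPKM in Mutant libraries (log2 fold change -1.33 ± 0.29, SE).

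The ID4_ locus in *Lin28a* (chr4:134004789-134004858), whose product blocks let-7 processing, was at 85.0, 77.9 and 38.4 CPM in WT and at 32.8, 30.1, 41.5 and 22.2 CPM in Mutant libraries. Only WT replicate 3 reached into the Mutant range, and the log2 fold change was -1.09 ± 0.17 (SE, adjusted p = 5.38e-07). The ID2 locus in *Tdrd1* (chr19:56869167-56869247) and the ID4_ locus in *Tdrd12* (chr7:35493664-35493734) lie in genes for Tudor proteins of the piRNA pathway. The *Tdrd1* locus was at 6.42, 12.5 and 1.996 CPM in WT and at 2.57, 2.68, 3.17 and 1.44 CPM in Mutant libraries, with a log2 fold change of -1.46 ± 0.33 (SE, adjusted p = 0.0198). The *Tdrd12* locus was at 33.6, 37.8 and 14.7 CPM in WT and at 16.3, 13.99, 18.4 and 14.1 CPM in Mutant libraries, with a log2 fold change of -0.87 ± 0.19 (SE, adjusted p = 0.0134). In both, WT replicates 1 and 2 were above all other libraries and WT replicate 3 was with the Mutant libraries.

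The same layout was seen at the ID4_ locus in Gm15262 (chrX:161365164-161365225), which had the lowest p of all members. It was at 40.7, 61.3 and 3.24 CPM in WT and at 16.3, 9.23, 7.92 and 2.88 CPM in Mutant libraries. The groups overlapped, the exact permutation p was 0.171, and it did not pass in DESeq2. Likewise, 2 loci in *Shcbp1l*, a gene of the meiotic spindle, were called, a B4 copy touching its coding sequence (chr1:153448983-153449039) and an RSINE1 copy in an untranslated exon (chr1:153439432-153439562). The B4 copy was at 6.85, 18.9 and 0.499 CPM in WT and at 7.70, 1.19, 0.951 and 1.73 CPM in Mutant libraries. Here the highest Mutant library was above 2 of the 3 WT libraries.

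Other lower loci in exons belonged to *Arntl2*, a circadian transcription factor, *Esrp1*, an epithelial splicing regulator, *Pgm2l1*, a sugar phosphate enzyme, and *Cecr2*, a chromatin remodelling factor. The ID4 locus in *Cecr2* (chr6:120769942-120770022) was at 3.64, 2.91 and 2.50 CPM in WT and at 0.570, 0.893, 0.951 and 0 CPM in Mutant libraries, and the groups did not overlap. The others had log2 fold changes of -1.63 ± 0.32 (ID_B1 in *Arntl2*), -0.92 ± 0.23 (ID4_ in *Esrp1*) and -0.91 ± 0.21 (ID4 in *Pgm2l1*), each with the SE. Their groups overlapped, with WT replicate 3 inside the Mutant range at each. In edgeR the adjusted p was 0.00102 in *Arntl2*, 0.0687 in *Esrp1*, 0.0276 in *Pgm2l1* and 0.0457 in *Cecr2*.

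Around the lincRNA Gm38509 on chromosome 3, 2 lower loci lay near each other. The ID_B1 copy in its exon, printed above, was at 7.28, 5.52 and 0.998 CPM in WT and at 1.996, 2.38, 0.634 and 0.577 CPM in Mutant libraries (log2 fold change -1.70 ± 0.41, SE, adjusted p = 0.0427). An RSINE1 copy 5215 bases from the gene (chr3:34766781-34766860) was at 3.42, 3.78 and 0.749 CPM in WT and at 0.285, 0.298, 0.634 and 0.577 CPM in Mutant libraries (log2 fold change -2.48 ± 0.61, SE, adjusted p = 0.0617). At both, WT replicate 3 was the lowest WT library, and only at the RSINE1 copy was it above all Mutant libraries. The other lower locus outside genes was a B4 copy 20136 bases from Gm30993 (chrX:66873201-66873390), at 3.85, 7.85 and 0.749 CPM in WT and at 1.71, 0.893, 0.951 and 0.577 CPM in Mutant libraries (log2 fold change -1.92 ± 0.45, SE, adjusted p = 0.0345).

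Some intronic loci fell while the host gene was nearly level. The ID_B1 locus in *Sec11a* (chr7:80935236-80935337), a signal peptidase subunit, was at 52.4, 44.5 and 18.0 CPM in WT and at 18.2, 18.2, 16.8 and 13.3 CPM in Mutant libraries, 100 bases from the nearest exon. Its log2 fold change was -1.21 ± 0.19 (SE, adjusted p = 5.69e-07), against -0.09 ± 0.08 (SE) for *Sec11a* FPKM. The ID4 locus in *Atp2a2* (chr5:122494983-122495041), the gene of a calcium pump, was at 2.78, 2.91 and 1.996 CPM in WT and at 0.285, 0.298, 0.951 and 0.288 CPM in Mutant libraries. These levels rest on 13, 10 and 8 reads in WT and 1, 1, 3 and 1 reads in Mutant libraries. The log2 fold change of the locus was -2.43 ± 0.61 (SE, edgeR adjusted p = 0.0867), and that of *Atp2a2* FPKM was 0.05 ± 0.09 (SE). The B4 locus in *Nlrp5-ps* (chr7:14569865-14570002) had 19, 8 and 7 reads in WT and 1, 1, 2 and 3 reads in Mutant libraries. Its log2 fold change was -2.34 ± 0.58 (SE, edgeR adjusted p = 0.0687), against -0.16 ± 0.17 (SE) for its host. The difference between locus and host was not tested.

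Inside *Glis3* itself the table held 35 member loci, of which 31 had reads. Together they were at 20.3, 16.0 and 9.98 CPM in WT and at 8.27, 7.44, 8.56 and 8.36 CPM in Mutant libraries. The groups did not overlap (15.4 ± 5.20 against 8.16 ± 0.492 CPM, SD, exact permutation p = 0.0286, the smallest possible), and WT replicate 3 was the lowest WT library. The B4A locus at chr19:28353273-28353387 had 8, 5 and 2 reads in WT and 0 reads in all 4 Mutant libraries. Against a floor of 3 reads over the Mutant group it was at least 5.56-fold lower (edgeR adjusted p = 0.0750). It lies in an intron 819 bases downstream of an exon (chr19:28354206-28354316), and the other 3 LINE, SINE and LTR loci within 5 kb of it had, in sum, 9, 2 and 4 reads in WT and 4, 2, 5 and 3 reads in Mutant libraries. Whether it is inside the deleted stretch of the zf5 allele was not tested, since the coordinates of that deletion are not given in the sources used here. WT replicate 3 had reads at this locus, unlike any Mutant library.

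Of the 9 higher loci, 5 touched untranslated exons and 4 were in introns, and the host genes of all 9 had a positive log2 fold change in FPKM. Of all genes tested, 47.9% were lower. The loci were chosen by direction in the same libraries, 2 of them share *Star*, and some host differences given below were smaller than their SE. WT replicate 3 lay below all Mutant libraries at each of the 9. The highest levels were at 2 RSINE1 copies in an untranslated exon of *Star*, whose product brings cholesterol into mitochondria for steroid synthesis and which is itself among the fetal Leydig cell markers above. The copy at chr8:25814506-25814589 was at 56.7, 84.6 and 59.9 CPM in WT and at 119, 100.01, 123 and 113 CPM in Mutant libraries. The groups did not overlap, with a log2 fold change of 0.77 ± 0.16 (SE, adjusted p = 0.00304 in edgeR and 0.0268 in DESeq2). The copy at chr8:25814743-25814893 was at 189, 305 and 189 CPM in WT and at 372, 289.9, 385 and 350.0 CPM in Mutant libraries. Its groups overlapped, since WT replicate 2 was above Mutant replicate 2, and its log2 fold change was 0.62 ± 0.14 (SE, adjusted p = 0.0276). *Star* FPKM was 0.47 ± 0.13 higher on the log2 scale (SE, limma adjusted p = 0.180). The summed Leydig cell markers were at 1596, 2658 and 1795 FPKM in WT and at 2959, 2498, 2693 and 3073 FPKM in Mutant libraries, with WT replicate 2 above Mutant replicate 2, and their part was not tested.

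The ID4 locus in *Cela1* (chr15:100674544-100674620), an elastase gene, was at 4.28, 5.23 and 2.74 CPM in WT and at 8.55, 8.33, 10.5 and 11.8 CPM in Mutant libraries (log2 fold change 1.26 ± 0.28, SE, adjusted p = 0.0129). The B4 locus in *Itih5* (chr2:10255356-10255622), a hyaluronan matrix gene, was at 20.98, 31.7 and 16.5 CPM in WT and at 41.3, 41.1, 35.5 and 33.2 CPM in Mutant libraries. At both loci the groups did not overlap, and the host genes had log2 fold changes of 0.97 ± 0.27 (*Cela1*) and 0.45 ± 0.17 (*Itih5*), each with the SE. The B4A locus in *Zfp319* (chr8:95324279-95324571) rose by 0.95 ± 0.21 on the log2 scale (SE) beside a host difference of 0.05 ± 0.12 (SE), and it also overlaps *Tepp*.

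In introns, the ID_B1 locus in *Ezh2* (chr6:47577301-47577368), the enzyme of H3K27 methylation, was at 8.35, 10.2 and 9.23 CPM in WT and at 15.7, 14.9, 19.0 and 25.9 CPM in Mutant libraries. The groups did not overlap, and the log2 fold change was 1.03 ± 0.22 (SE, adjusted p = 0.00621), against 0.23 ± 0.08 (SE) for *Ezh2* FPKM. The B4A locus in *Prim1*, a primase subunit (chr10:128019653-128019869), and the ID4_ locus in *Ahcyl1* (chr3:107665313-107665370) had log2 fold changes of 1.31 ± 0.31 and 1.09 ± 0.27 (SE), against 0.05 ± 0.07 and 0.02 ± 0.07 (SE) for their hosts. They lie 87 and 22 bases from the nearest exon. The B4A locus in *Fbxl7* (chr15:26802876-26803122) had 0 reads in the 3 WT libraries and 5, 3, 3 and 6 reads in the Mutant libraries. Against a floor of 3 reads over the WT group it was at least 5.09-fold higher (adjusted p = 0.0746). Without WT replicate 3, 3 of the 9 passed, the loci in *Zfp319* (adjusted p = 0.0106), *Ezh2* (0.0396) and *Prim1* (0.0739).

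Across loci, exonic members moved with their host gene more than intronic members did. Over 605 exonic loci with a mean of at least 50 reads, in 537 genes, Pearson's r between the log2 fold changes of locus and host was 0.70 and Spearman's rho 0.62. Over 268 such intronic loci in 214 genes, r was 0.33 and rho 0.29. With loci of at least 10 reads r was 0.46 in exons and 0.18 in introns, and over all tested loci with a tested host it was 0.22 (5067 exonic loci) and 0.12 (56405 intronic loci). These are correlations across loci, given as a description: locus and host were measured in the same libraries, reads on an exonic locus enter the host's FPKM, and several loci share a gene.

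**Figure D5:**
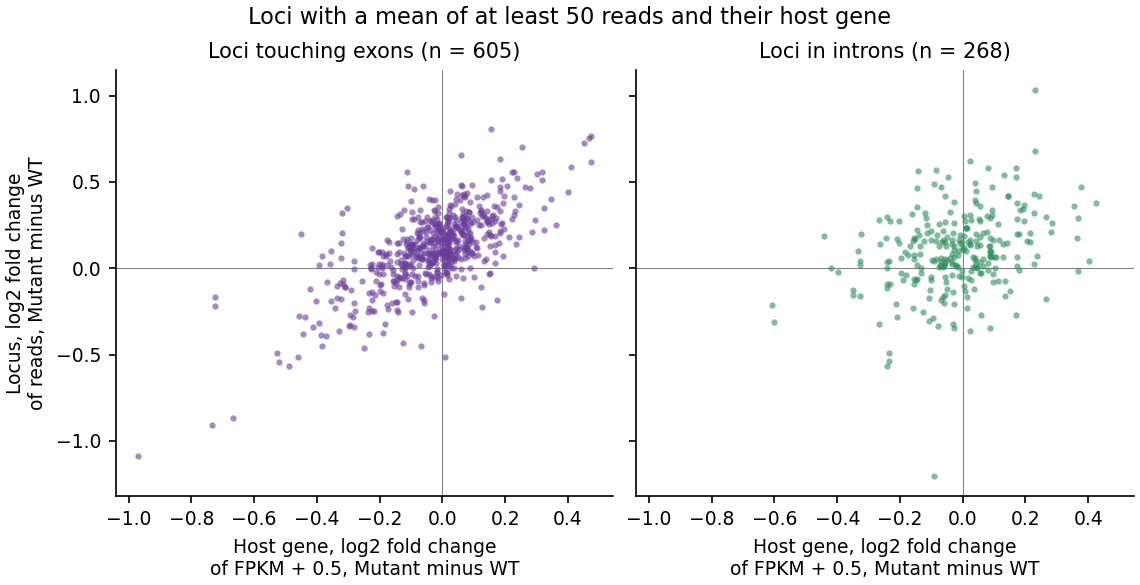
log2 fold change of the reads of each member locus (y axis) against that of its host gene's FPKM + 0.5 (x axis), Mutant minus WT, for loci with a mean of at least 50 reads; each point is a locus, 605 touching exons and 268 in introns. The exonic points lie along a rising line and the intronic points scatter more widely about it.

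Among the listed genes of RNA polymerase III and of chromatin repressors of SINEs or other retrotransposons, none passed the threshold of adjusted p under 0.05 in limma. Of 26 genes of RNA polymerase III and its factors, 21 had a lower and 5 a higher mean in Mutant testes, the median of the log2 fold changes was -0.12 against 0.01 over all genes tested, and 7 were lower at an unadjusted p under 0.05. Of all 13988 genes tested, 47.9% were lower, 8.79% were lower at an unadjusted p under 0.05 and 8.21% higher. *Gtf3c3*, a subunit of TFIIIC, which binds the A and B boxes, was at 35.9, 31.1 and 27.5 FPKM in WT and at 26.0, 22.8, 25.04 and 23.7 FPKM in Mutant libraries. All Mutant libraries were below all WT libraries (log2 fold change -0.36 ± 0.09, SE, adjusted p = 0.180), and *Gtf3c3* was the 1 gene of the list that passed without WT replicate 3, when 722 of 14019 genes did. *Polr3a*, the largest subunit of the polymerase, did not pass, with -0.31 ± 0.09 (SE, adjusted p = 0.186), nor did *Tbp*, the TATA-binding protein, with -0.20 ± 0.06 (SE, adjusted p = 0.188). The genes with the lowest p among those higher were *Polr3k* (0.05 ± 0.07), *Polr1d* (0.06 ± 0.10) and *Crcp* (0.04 ± 0.09), log2 fold changes with the SE.

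Of 16 genes of chromatin repressors, 14 had a lower and 2 a higher mean in Mutant testes, the median of the log2 fold changes was -0.10, and 6 were lower and 1 higher at an unadjusted p under 0.05, beside the same shares of all genes. *Hells*, a chromatin remodeller needed for DNA methylation, was at 112, 87.6 and 102 FPKM in WT and at 68.3, 75.3, 83.3 and 76.7 FPKM in Mutant libraries (log2 fold change -0.40 ± 0.10, SE, adjusted p = 0.169). *Suv39h2*, an H3K9 methyltransferase, was at 16.4, 14.8 and 15.5 FPKM in WT and between 12.6 and 13.2 FPKM in Mutant libraries (-0.26 ± 0.06, SE, adjusted p = 0.169). *Setdb1*, the H3K9 methyltransferase that acts with *Trim28*, had a log2 fold change of -0.23 ± 0.07 (SE, adjusted p = 0.194). In these 3 genes the groups did not overlap. *Uhrf1*, the partner of the maintenance DNA methyltransferase, was higher by 0.22 ± 0.08 (SE, adjusted p = 0.244) and *Adnp* by 0.01 ± 0.07 (SE). Without WT replicate 3, when 722 of 14019 genes passed, *Mphosph8*, named here after its value was seen, passed, with a log2 fold change of -0.69 ± 0.07 (SE, adjusted p = 0.00643).

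The other marker lists were measured as sums of FPKM. Sertoli cell markers were between 219.5 and 336 in WT and between 287 and 352 in Mutant libraries, endothelial markers between 45.7 and 56.1 and between 47.6 and 51.8, and blood markers between 786 and 3284 and between 770.1 and 1886. Macrophage markers were between 4.0003 and 5.11 and between 5.14 and 5.71, mast cell markers between 4.48 and 8.36 and between 6.81 and 11.7, and mesonephros markers between 1.87 and 3.06 and between 1.08 and 1.90. In the mast cell list *Kit* was at 5.79 ± 1.71 (SD, n = 3) in WT and 5.17 ± 0.693 (SD, n = 4) in Mutant testes. *Cpa3* was at 0.796 ± 0.449 and 2.51 ± 1.69. In the mesonephros list *Lhx1*, which the paper names among genes of undifferentiated spermatogonia, was at 1.63 ± 0.680 and 0.703 ± 0.152. *Pax8* was at 0.746 ± 0.195 and 0.778 ± 0.186, so these sums do not stand for a cell type. Skeletal muscle markers were between 0.543 and 14.2 and between 0.562 and 21.7, and adrenal cortex markers between 6.28 and 12.3 and between 10.9 and 18.4. No gene of the marker lists passed the threshold with all libraries, and without WT replicate 3 the germ cell markers *Ddx4* (adjusted p = 0.00391), *Dazl* (0.0126), *Pou5f1* (0.0213) and *Sall4* (0.0493) passed in limma. In that fit 722 of 14019 genes passed. The library left out had a germ cell marker sum within the Mutant range, so leaving it out widens the difference in these markers.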

How the data were processed

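RNA was measured in 3 WT and 4 Mutant testis pairs. The authors aligned reads with TopHat2 2.0.12 to mm10 and deposited HTSeq counts of uniquely aligned reads per RepeatMasker locus, and FPKM per RefSeq gene from Cuffnorm. Unique alignment removes reads that fit several copies, so young copies are measured less fully. One header lacks a tab, so columns were read by number, and 0 columns were left unused. Members and gene lists were chosen with earlier results of these data known. Loci that averaged 1 read or more were tested on the counts with edgeR 4.0.16 (quasi-likelihood, TMM, adjusted p under 0.1), and name and position totals likewise with the same effective library sizes. DESeq2 1.42.0 was an alternative. Genes with a mean FPKM of at least 0.5 were tested as log2(FPKM + 0.5) with limma 3.58.1 (adjusted p under 0.05), and this scale understates changes of low genes. P-values are adjusted by Benjamini-Hochberg over all features. Named loci are those past the threshold and the most-read locus per name, and named genes are the 3 with the lowest p in each direction of each list. Positions come from GENCODE M21 (GRCm38) with bedtools 2.31.1, promoters from RefSeq. Of the loci past the threshold, 1 is counted but not reported here by name. The scripts were tested on simulated data. Replicate numbers did not pair the samples (r between 0.03 and -0.08 for same-numbered libraries). Each library is a different embryo.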

Additional observations from a re-analysis of the deposited data

Results flagged for a closer look

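In 6 of 81 values tested, 1 of the 4 Mutant libraries stood farther from the rest than Dixon's 95% critical value allows, and chance alone flags about 1 in 20. Mutant replicate 1 was at 10973 CPM in intronic B4 loci, where the others were between 10545 and 10596 CPM, and at 7.70 CPM at the B4 locus in *Shcbp1l* on chromosome 1, where the others were between 0.951 and 1.73 CPM. Mutant replicate 3 was at 753 CPM in exonic ID loci (others 676 to 688 CPM), at 0.951 CPM at the ID4 locus in *Atp2a2* (others 0.285 to 0.298 CPM, which are 1 read each against 3) and at 424 CPM at the B4 locus in *Pdia4* (others 368 to 377 CPM). In Mutant replicate 3, 36.4% of member reads lay in exons, against 33.6% to 34.1% in the other Mutant libraries. The causes were not tested.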

How the results depend on the processing

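The 28 loci past the threshold depended on the processing. The counts were 1 higher and 1 lower with DESeq2, with its filter on low means or without it (the latter chosen after seeing the data, like the robust spread, which gave 9 and 15), 4 and 13 with no filter, 0 and 2 with a mean of at least 10 reads, and 4 to 11 higher and 4 to 35 lower when 1 library was left out. Over single loci and alternatives, 220 results kept their direction and side of the threshold, 192 kept the direction but no longer passed, and none reversed. The log2 fold changes of name totals reversed to -0.00632 (B4), -0.0322 (B4A), -0.0156 (RSINE1) and -0.00346 (ID) with library size only. With TMM on the name totals they reversed to -0.0261 (B4), -0.0522 (B4A), -0.0358 (RSINE1), -0.0237 (ID), -0.0201 (ID2) and -0.0162 (ID_B1). None of these passed the threshold. The count of position totals past the threshold was 0 with library size only and 0 to 4 with 1 library left out. B4 outside genes had log2 fold changes of 0.20 with library size only and 0.22 to 0.30 with 1 library left out. The difference in the share of member reads outside genes reversed to -0.0334 percentage points over loci that averaged 1 read or more. Genes past the threshold were 0 to 1 for RNA polymerase III, 0 to 1 for chromatin repressors and 0 to 9 for host genes with 1 library left out. With 1 library left out, the log2 fold changes ran from -0.0187 to 0.0987 for *Polr3k* (negative without WT replicate 1), from -0.0280 to 0.0854 for *Crcp* (negative without Mutant replicate 1) and from -0.0401 to 0.0562 for *Adnp* (negative without WT replicate 2 or Mutant replicate 2). The causes were not tested.

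With the replicate number as a block, 3 loci were higher and 12 lower, 0 position totals passed, and B4 outside genes had a log2 fold change of 0.22 (adjusted p = 0.436). The numbers do not pair the samples, so this says nothing of the size of the effects. Loci of few reads limit the precision, since a locus with a mean of 1 read can show only large differences.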
